A study of Drosophila melanogaster with 3 samples.

Results

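The genes described here encode parts of the junctions that hold neighbouring cells together: polychaetoid (pyd, FBgn0262614), discs large 1 (dlg1, FBgn0001624), shotgun, the Drosophila E-cadherin (shg, FBgn0003391), armadillo, the Drosophila β-catenin (arm, FBgn0000117), α-Catenin (alpha-Cat, FBgn0010215) and p120 catenin (p120ctn, FBgn0260799). All called intervals listed under these 6 gene IDs were taken, 211 of 51962 in the series, from 6 of 6502 genes. The genes were selected by their identity, but with earlier results from the same libraries known, among them the numbers of intervals per gene and the regions shared by the libraries. Those values are therefore given as a description without a test. The files give gene IDs without symbols, so the symbols are those that came with the selection. A RefSeq table of the Release 6 assembly lists all 6 symbols, on the same chromosome as the intervals in 6 of 6 cases, but pairs none of them with its gene ID.

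The intervals come from iCLIP of Aubergine (Aub), a Piwi-family protein that carries piRNAs. In iCLIP, ultraviolet light fixes a protein to RNA it touches, and the attached RNA is purified with the protein and sequenced. The material was a line of cultured germline stem cells (GSC) that carried UASp-GFP-aub/+ together with bam∆86hs-bam/nos-gal4 bam∆86, without drug treatment, irradiated with 150 mJ/cm2 at 254 nm. The GFP-Aub transgene is under UASp control and is driven by nos-gal4, a germline driver, and the labels list no mutation of aub itself. All libraries carry the bam deletion allele and the hs-bam transgene, so that nothing here compares cells with and without bam. The 3 libraries form 1 group, without a control library analysed here, and the labels do not say whether they came from separate cultures. The spread between them may be technical.

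E-cadherin spans the membrane and binds the same protein on the next cell. Inside the cell β-catenin holds its tail and α-Catenin joins the pair to actin, while p120 catenin binds the tail nearer to the membrane. In the fly gonad this complex anchors germline stem cells to their niche. Pyd, the fly counterpart of the vertebrate ZO-1 scaffold, and Dlg1, a scaffold of septate junctions and a regulator of cell polarity, both belong to the MAGUK family of membrane-associated scaffold proteins.

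Depth has to be read with the values that follow. Replicates 1, 2 and 3 hold 4007, 36157 and 11798 intervals, so 1 interval is 0.0250%, 0.00277% and 0.00848% of its library. The intervals have no height, since the deposited score is 0 throughout, and the number of reads behind them is unknown. A gene with intervals is called bound below, in the sense that the authors listed at least 1 interval there. Transcript abundance was not measured, so a gene with many intervals may be more abundant, longer or more often touched by Aub, and these cannot be told apart.

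Most of the intervals lay in the 2 scaffold genes, and few in the catenins. Pyd and dlg1 together held 35, 75 and 46 intervals in replicates 1, 2 and 3, against 6, 36 and 13 in the 4 genes of the E-cadherin complex. As a share of the library, the scaffold genes had 0.873%, 0.207% and 0.390% of the intervals (mean 0.490% ± 0.344, SD, n = 3, and 0.299% without replicate 1). The complex had 0.150%, 0.0996% and 0.110% (0.120% ± 0.0264). The scaffold genes were above the complex in every library, with 85.4%, 67.6% and 78.0% of the intervals of the 6 genes. All 6 genes together made up 1.02% of replicate 1 (95% Wilson interval 0.755 to 1.39), 0.307% of replicate 2 (0.255 to 0.370) and 0.500% of replicate 3 (0.388 to 0.644). The share was thus highest in the library with fewest intervals and lowest in the library with most, and the mean of 0.610% ± 0.371 (SD, n = 3) was 0.404% without replicate 1. By covered nucleotides the shares were 0.996%, 0.436% and 0.479%, in the same order.

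**Figure D1:**
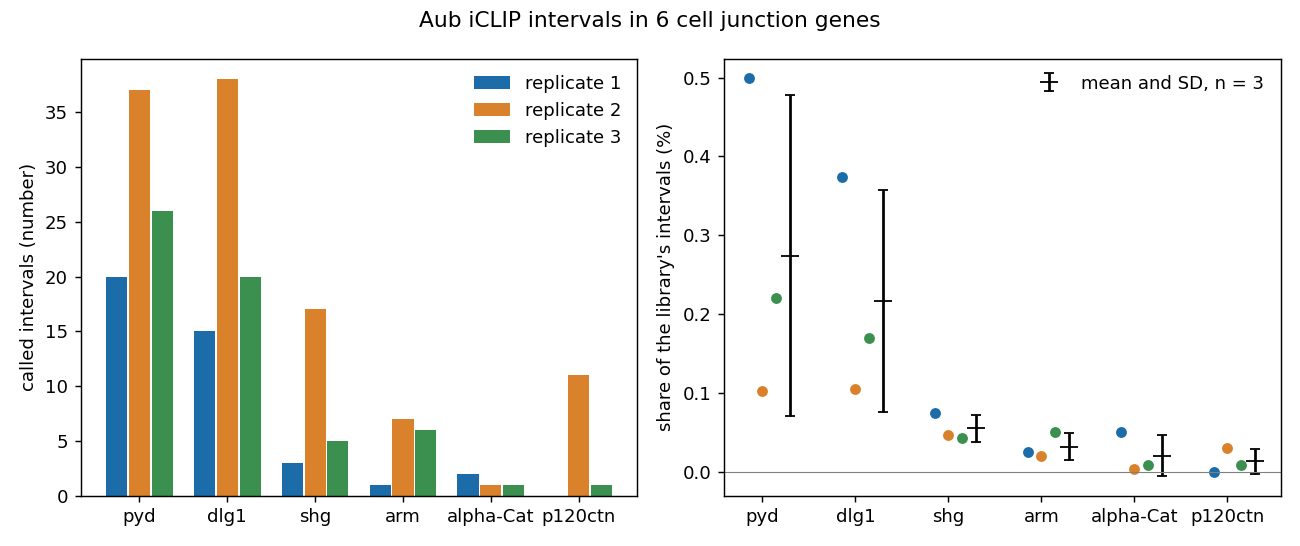
Called intervals of the 6 genes in replicates 1, 2 and 3, as a number (bars, left) and as a percentage of the library's intervals (dots, right, with the mean and SD of the 3 libraries as black lines). Replicate 2 has the tallest bars in 5 genes but the lowest dots for pyd and dlg1, and p120ctn has no interval in replicate 1.

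Of the 6 genes, 5 had intervals in all 3 libraries and p120ctn had them in replicates 2 and 3 alone. Among all 6502 genes with any interval, 20.9% had them in all 3, a percentage that includes genes with few intervals. Other genes with about as many intervals in replicate 2 were therefore taken for each of the 5. Of these, 2.38% (pyd), 2.56% (dlg1), 14.9% (shg), 65.9% (arm) and 96.7% (alpha-Cat) had none in replicate 1. Requiring 2 or more intervals in each library left pyd, dlg1 and shg. The percentage of all genes at this setting is not given here.

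Pyd had 20, 37 and 26 intervals in replicates 1, 2 and 3, which were 0.499%, 0.102% and 0.220% of the libraries (mean 0.274% ± 0.204, SD, n = 3, and 0.161% without replicate 1). It was the gene with the sixth most intervals of 1459 in replicate 1 (rank 6), and ranked 54 of 6364 in replicate 2 and 10 of 3310 in replicate 3. Its share in replicate 1 was 4.88 times that in replicate 2, and its Wilson intervals in these libraries (0.323 to 0.770 and 0.0743 to 0.141) did not overlap. Such bounds take the intervals of a gene as independent, which close neighbours are not, and the difference was not tested. In counts pyd differed between libraries by less than the libraries themselves, since the total of replicate 2 was 9.02 times that of replicate 1.

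The intervals of pyd lay on the minus strand of 3R between 4653211 and 4757599 (dm3), a span of 104389 nt of which 1329 nt (1.27%) were covered in any library. They fell into a dense cluster at the 5′ end of this span and scattered groups in the other part, separated by 49376 nt without an interval in any library (4707062 to 4756437). On the 5′ side of this gap lay 10, 11 and 13 intervals of replicates 1, 2 and 3, and on the 3′ side 10, 26 and 13. By count, the 5′ side therefore took an almost equal number in every library, and replicate 2 exceeded both other libraries on the 3′ side alone. By nucleotides replicate 2 also covered more on the 5′ side. In the densest region, described next, it covered 459 nt, against 177 nt in replicate 1 and 266 nt in replicate 3. Whether these stretches are exons, introns or untranslated regions was not analysed here.

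The densest part of pyd was a region of 641 nt, chr3R:4756959-4757599, formed by intervals with at most 50 nt between them. It held 8, 10 and 12 intervals, out of 20, 37 and 26 in the gene. Counts are a blunt measure here, because the intervals of replicate 2 were longer, with a mean of 45.9 nt against 22.1 nt in replicate 1 and 22.2 nt in replicate 3. By nucleotides, 177, 459 and 266 of the 641 were covered (27.6%, 71.6% and 41.5%). Of the nucleotides that replicate 1 covered in the region, 94.9% were also covered by replicate 2, as were 89.5% of those of replicate 3, and 115 nt were covered by all 3. The 5′-most base of the region, 4757599, was the 5′ edge of an interval in both replicate 1 and replicate 2. Base 4757015 was the 3′ edge of an interval in all 3 libraries.

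Dlg1 had 15, 38 and 20 intervals in replicates 1, 2 and 3 (0.374%, 0.105% and 0.170%, mean 0.216% ± 0.141, SD, n = 3, and 0.137% without replicate 1). It ranked 9, 49 and 24 among the bound genes of these libraries. As for pyd, the share was highest in replicate 1, at 3.56 times that of replicate 2. Pyd exceeded dlg1 in 2 of the 3 libraries, with a mean difference of 0.0576 percentage points ± 0.0640 (SD, n = 3), so their order was not resolved. Dlg1 exceeded shg, the next gene, in 3 of 3 libraries (0.162 points ± 0.124).

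The intervals of dlg1 lay on the plus strand of X between 11263731 and 11302303 and covered 1236 nt (3.20%) of this span. They formed 3 groups along the gene. The first ended with a region of 333 nt, chrX:11267850-11268182, that held 8 of 15, 8 of 38 and 4 of 20 intervals in replicates 1, 2 and 3. Of this region 183, 241 and 83 nt were covered, so replicate 1 covered more of it than replicate 3, although replicate 3 had more intervals in dlg1 as a whole. Its first base, 11267850, was the 5′ edge of an interval in all 3 libraries, and all 83 nt that replicate 3 covered here were also covered by replicate 2, as were 82.5% of those of replicate 1.

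The second group followed after 13010 nt without an interval. It contained a region of 223 nt (chrX:11283094-11283316) with 2, 2 and 3 intervals and one of 215 nt (chrX:11284102-11284316) with 2, 3 and 4 intervals. In the second of these, 212 nt were covered in replicate 2, against 32 and 81 nt in replicates 1 and 3. The third group lay near the 3′ end. Downstream of the last base covered by replicate 1, replicate 2 had 13 intervals and replicate 3 had 5, so that the 3′ part of dlg1 was represented in those libraries alone. A short position upstream of the dense region, chrX:11267108-11267175, had 1, 2 and 2 intervals, and its last base was the 3′ edge of an interval in all 3 libraries.

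**Figure D2:**
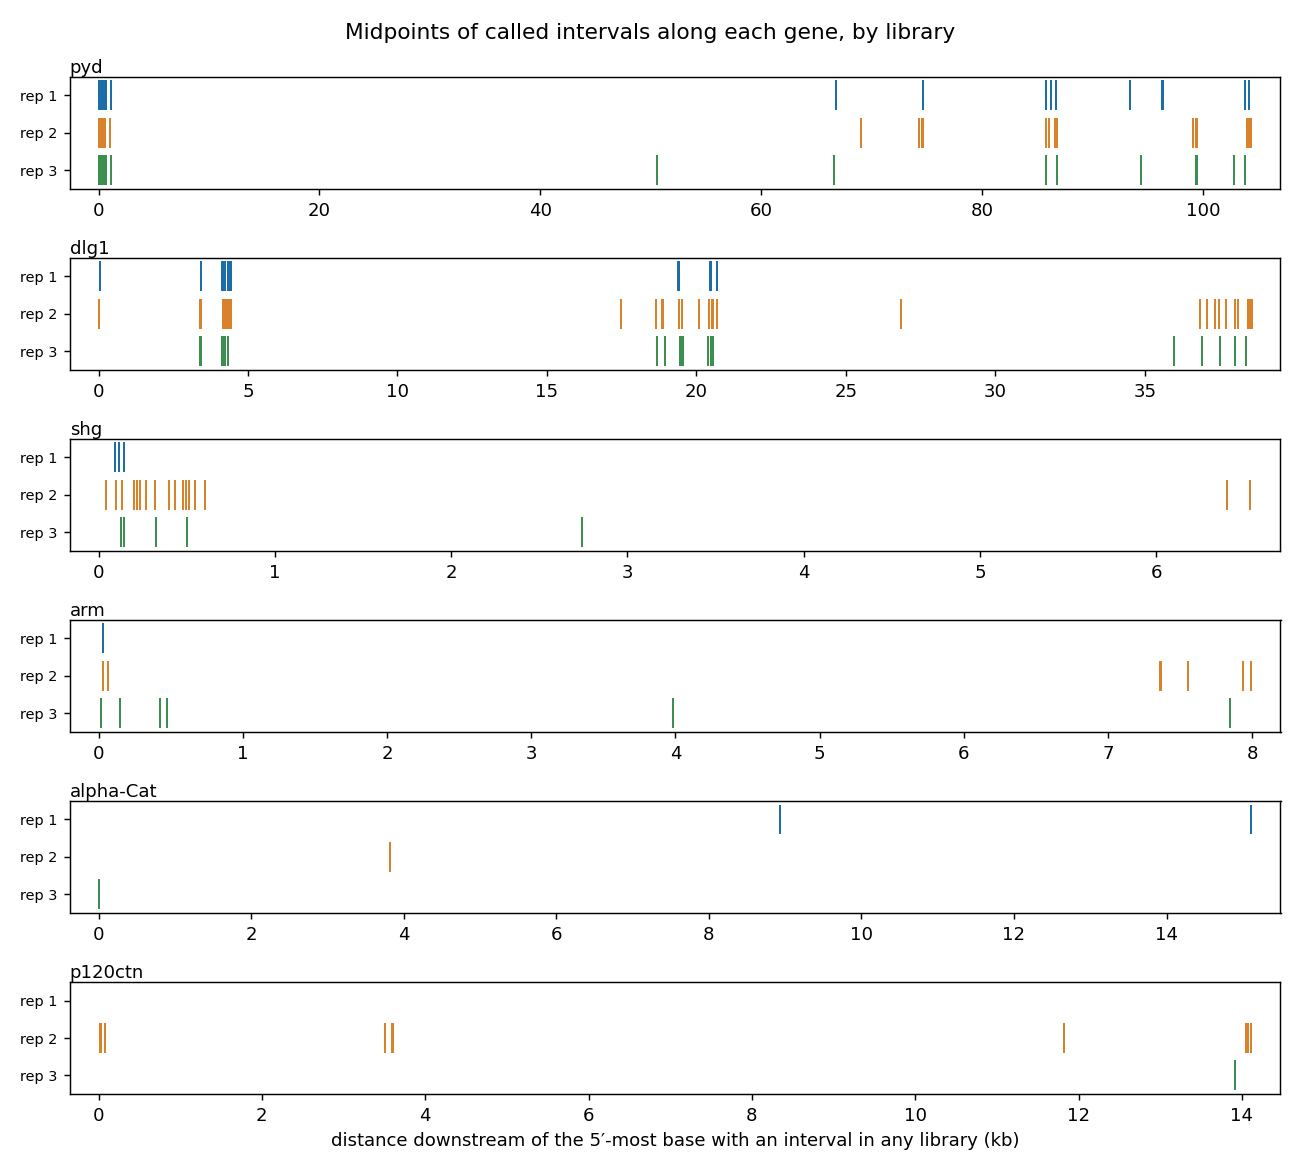
Midpoints of the called intervals along the 6 genes in replicates 1, 2 and 3, in kb downstream of the 5′-most base with an interval in any library. Pyd has a dense cluster at its 5′ end, with 10, 11 and 13 intervals, dlg1 has 3 groups of which the last lacks replicate 1, and the 4 intervals of alpha-Cat lie apart from each other.

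Shg, the E-cadherin gene, had 3, 17 and 5 intervals in replicates 1, 2 and 3 (0.0749%, 0.0470% and 0.0424%, mean 0.0548% ± 0.0176, SD, n = 3). Its share varied least between libraries of the 5 genes bound in all 3, with a ratio of 1.77 between the highest and the lowest, although 3 intervals in replicate 1 leave a wide Wilson interval (0.0255 to 0.220). It ranked 335, 390 and 593 among the bound genes. The intervals were concentrated at 1 place. A region of 630 nt on the minus strand, chr2R:16944017-16944646, held 3 of 3, 15 of 17 and 4 of 5 intervals, and it formed the 5′ end of the span in which shg had intervals. Replicate 2 covered 453 nt of it (71.9%), against 66 nt (10.5%) in replicate 1 and 76 nt (12.1%) in replicate 3. Many intervals of replicate 2 lay close together there: 8 of the 16 gaps between neighbouring shg intervals were of at most 10 nt. When intervals with at most 10 nt between them in a library were counted once, a setting chosen after seeing the data, shg had 1, 9 and 4 positions and its mean share was 0.0320%. All 3 libraries met in 156 nt at the 5′ end of the region, chr2R:16944491-16944646, with 3, 3 and 2 intervals. Only 22 nt were covered by all 3, and the part of it 5′ of base 16944567 was covered by replicate 2 alone.

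Arm, the β-catenin gene, had 1, 7 and 6 intervals (0.0250%, 0.0194% and 0.0509%, mean 0.0317% ± 0.0168, SD, n = 3). Its share was highest in replicate 3, unlike that of pyd, dlg1 and shg, but the Wilson intervals of replicates 3 and 2 overlapped (0.0233 to 0.111 and 0.00938 to 0.0400). The only interval of replicate 1, of 18 nt, lay in a position of 63 nt at the 5′ end of the covered span, chrX:1793430-1793492 on the minus strand. Replicate 2 had 2 intervals there and replicate 3 had 1, and 14 nt were covered by all 3 libraries. All other intervals of arm, 5 each in replicates 2 and 3, were farther than 10 nt from an interval of another library.

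Alpha-Cat had 2, 1 and 1 intervals (0.0499%, 0.00277% and 0.00848%), and although it was bound in all 3 libraries none of its 4 positions recurred. The intervals were 14 and 11 nt long in replicate 1, 2 nt in replicate 2 and 25 nt in replicate 3. The nearest pair from different libraries, in replicates 2 and 3, lay 3800 nt apart. The mean share of 0.0204% ± 0.0257 (SD, n = 3) rested on replicate 1, without which it was 0.00562%. Being bound in all 3 libraries therefore had another content here than in pyd, dlg1, shg and arm, in which the libraries met at the same places. A total of 5 other genes had the same 3 counts as alpha-Cat.

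P120ctn had 0, 11 and 1 intervals. Its absence from replicate 1 allows a share of up to 0.0749% (3 of 4007 intervals), which is above its shares of 0.0304% in replicate 2 and 0.00848% in replicate 3, so no difference was detectable at this depth. Of the other genes with 9 to 13 intervals in replicate 2, 276 of 638 (43.3%) also had none in replicate 1. In replicate 3, 124 of these 638 (19.4%) had at most 1 interval. The intervals of replicate 2 lay in 5 regions on the plus strand of 2R between 482863 and 496982, and covered 178 nt. The position with most of them, chr2R:486453-486472, held 3. The interval of replicate 3 was 4 nt long and lay 126 nt from the nearest interval of replicate 2, so no position recurred. The mean shares of shg, arm, alpha-Cat and p120ctn differed between neighbours in this order by less than 1 SD of the difference over the libraries. Shg exceeded alpha-Cat in 3 of 3 libraries, by 0.0344 percentage points ± 0.0097 (SD, n = 3), and p120ctn in 3 of 3, by 0.0418 ± 0.0299. In replicate 1, shg had 3 intervals against 2 in alpha-Cat. With intervals within 10 nt counted once, it had 1 position there against 2. The order of shg and alpha-Cat in replicate 1 therefore depends on how close intervals are counted. The order of arm, alpha-Cat and p120ctn, and that of shg and arm, was not resolved.

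The positions were compared between libraries next. Intervals of a gene with at most 10 nt between them, from any library, were joined to 1 position, which gave 103 positions in the 6 genes. Joining runs through intermediate intervals, so the libraries of a position need not cover a common base. Of the 103 positions, 12 (11.7%) had intervals of all 3 libraries and 27 (26.2%) of at least 2. Over all genes, 3.24% of the positions had intervals of all 3 libraries and 15.7% of at least 2. The 12 positions were in dlg1 in 6 cases, in pyd in 4 and in shg and arm in 1 each. Together they held 78 of the 211 intervals. Of the remaining positions, 11 were found in replicate 1 alone, 44 in replicate 2 alone and 21 in replicate 3 alone. A gene with many intervals on a short stretch has more chance to share positions, and the genes were chosen from such results, so nothing is read from the higher percentages.

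The 4 positions of pyd that all libraries shared included 3 within its 5′ region: chr3R:4757451-4757599 with 2, 3 and 3 intervals, chr3R:4757162-4757294 with 4, 2 and 3, and chr3R:4756992-4757140 with 2, 3 and 3. The other, chr3R:4671798-4671872, lay 85727 nt downstream of the 5′-most base and had 1, 2 and 2 intervals. In dlg1, 3 of the 6 lay in the dense region (chrX:11267850-11267917 with 2, 1 and 2 intervals, chrX:11267932-11267995 with 1, 2 and 1, and chrX:11268010-11268140 with 4, 4 and 1). The others were the upstream position and 2 in the second group, chrX:11283094-11283186 with 2, 1 and 1 intervals and chrX:11284102-11284316 with 2, 3 and 4. In chrX:11283094-11283186 the intervals of replicates 1 and 3 did not overlap and were joined only through that of replicate 2. The positions of shg and arm complete the set.

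**Figure D3:**
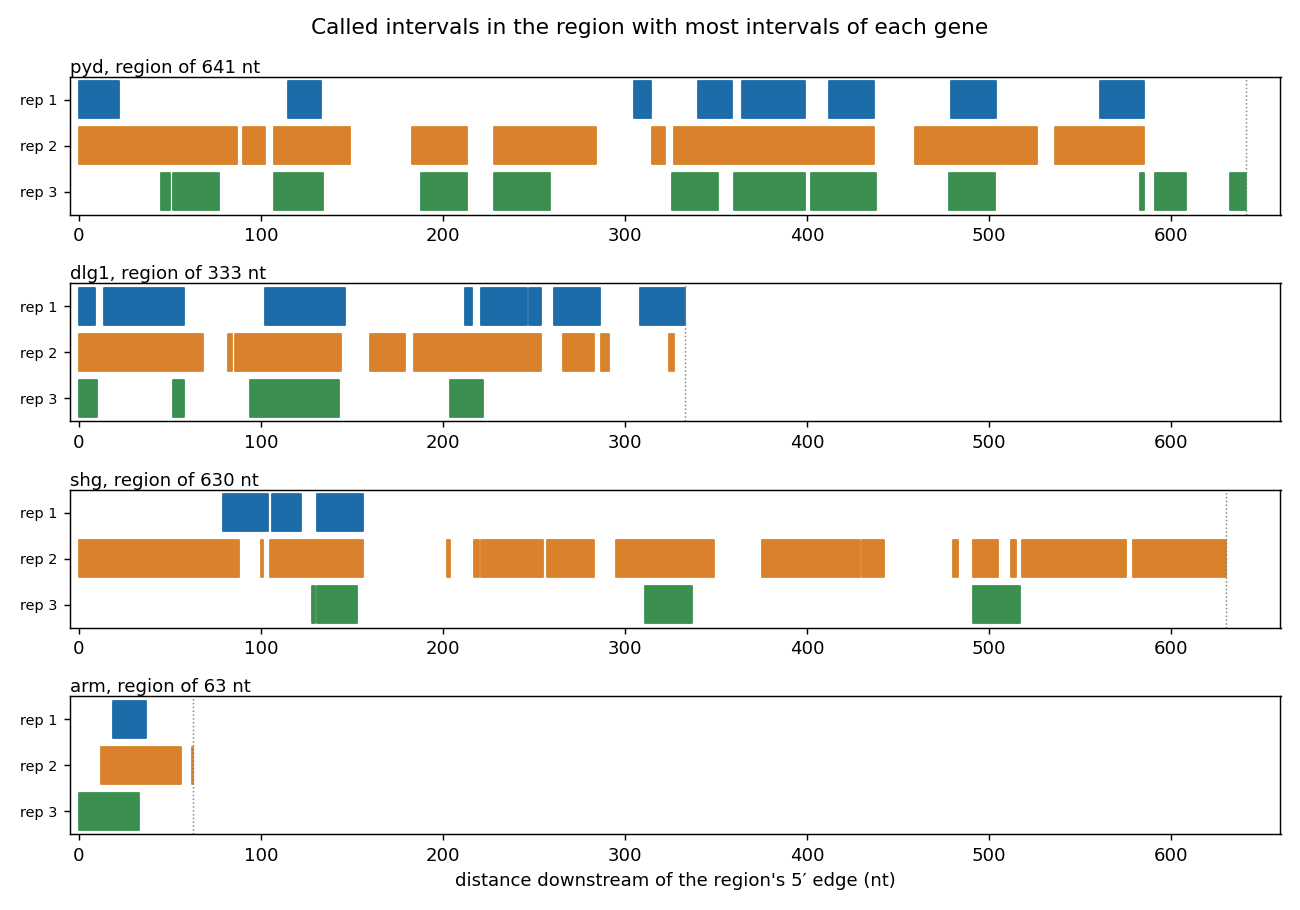
Called intervals in replicates 1, 2 and 3 within the region of most intervals in pyd, dlg1, shg and arm, in nt downstream of the region's 5′ edge, with bars drawn to scale and the dotted line at the region's end. The bars of replicate 2 are the longest and cover most of those of the other libraries, 94.9% and 89.5% of the covered nucleotides of replicates 1 and 3 in pyd.

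Counted by interval, 30 of the 41 that the 6 genes had in replicate 1 were shared with replicate 2, with at most 10 nt between them (73.2%, Wilson bounds 58.1 to 84.3), against 59.9% over all genes. For replicate 1 in replicate 3 it was 18 of 41 (43.9%, 29.9 to 59.0), against 33.0%. For replicate 3 in replicate 2 it was 37 of 59 (62.7%, 49.95 to 73.9), against 46.6%. The percentage over all genes lay within the interval of the 6 genes for the first and second pairs and below it for the third. In the reverse directions the percentage over all genes lay below the Wilson bounds of the 6 genes each time. It was 25.2% (18.1 to 34.0) in the 6 genes against 7.60% over all genes for replicate 2 in replicate 1. The values were 32.4% (24.4 to 41.6) against 17.0% for replicate 2 in replicate 3, and 30.5% (20.3 to 43.1) against 12.0% for replicate 3 in replicate 1. These Wilson intervals treat intervals as independent, which neighbours in 1 gene are not, and they cover counting error only. The mean over the first 3 comparisons was 59.9% ± 14.8 in the 6 genes and 46.5% ± 13.4 over all genes (SD over pairs, which share libraries). As for the positions, the genes were chosen with such results known. Genes with many close intervals also have more chance to share them, so nothing is read from the higher percentages.

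The 2 scaffold genes differed in this respect in replicate 1. In dlg1, 14 of the 15 intervals (93.3%, 70.2 to 98.8) were shared with replicate 2, and the remaining one was 20 nt away. In pyd it was 12 of 20 (Wilson bounds 38.7 to 78.1), and the other 8 were 116 to 5649 nt from the nearest pyd interval of replicate 2, with 4 of them over 1000 nt away. The Wilson intervals of the genes overlapped and the difference was not tested. Of the intervals of replicate 3, 16 of 20 in dlg1 and 16 of 26 in pyd were shared with replicate 2. By nucleotides, replicate 2 covered 82.8% of those covered by replicate 1 in dlg1 and 54.9% in pyd.

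**Figure D4:**
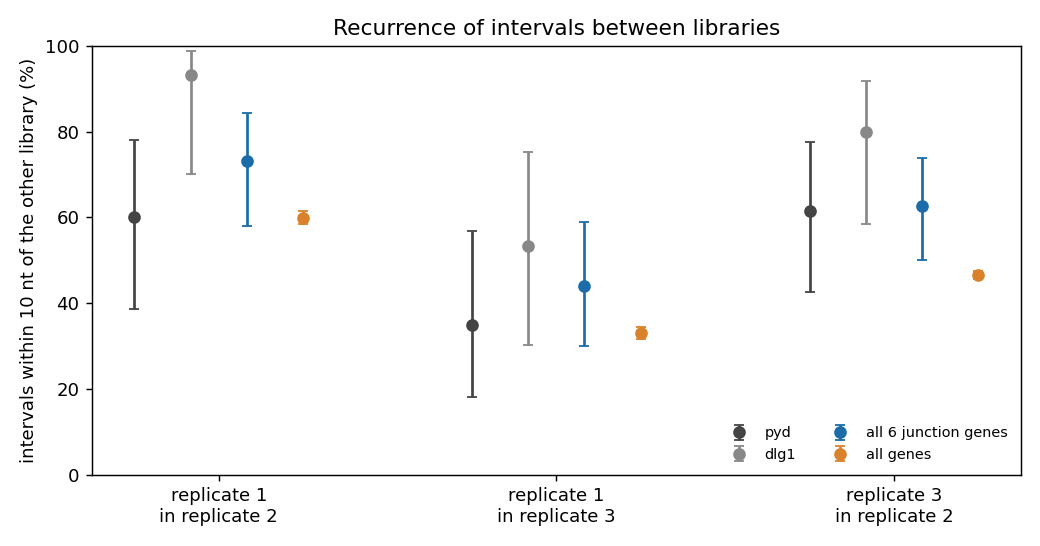
Percentage of intervals within 10 nt of an interval of the other library, for 3 pairs of libraries, in pyd, dlg1, the 6 junction genes together and all genes, with 95% Wilson intervals as bars. Dlg1 is highest in each pair, with 14 of 15, 8 of 15 and 16 of 20 intervals, and its bars overlap those of pyd.

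Pyd, shg and arm shared a feature of position. In each of them the position nearest to the 5′ end of the covered span had intervals of all 3 libraries, whereas in none of them, nor in dlg1, did the position nearest to the 3′ end. The 5′-most position was thus shared in 3 of the 4 genes with at least 1 such position. Over all 680 genes with 2 or more positions, of which at least 1 had intervals of all 3 libraries, the 5′-most position had them in 22.5% and the 3′-most in 11.6%. This count was made after the maps had been seen, and 4 genes are too few to set against that percentage. The ends are those of the intervals and not of annotated transcripts.

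Exact edges were seldom shared in the 6 genes, also where positions were. Edges over all genes were not counted here, so nothing is read as particular to these genes. Of 203 distinct 5′ edges of intervals in the 6 genes, 7 occurred in at least 2 libraries and 1 in all 3. Of 198 distinct 3′ edges, 11 occurred in at least 2 and 2 in all 3. No interval had both edges equal in 2 libraries. The shared edges were in pyd (3 at 5′ and 5 at 3′ edges), dlg1 (2 and 5) and shg (2 and 1), and none was in arm, alpha-Cat or p120ctn.

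The intervals of the 6 genes were by median close in width to those elsewhere in replicates 1 and 3 and wider in replicate 2. Their median width was 24, 18 and 23 nt in replicates 1, 2 and 3, against 25, 13 and 25 nt over all genes. The widest were 44, 122 and 49 nt long, and that of 122 nt lay in dlg1. Intervals of 1 or 2 nt made up 14.4% of those of the 6 genes in replicate 2, against 14.2% over all genes. Neighbouring intervals of a gene had at most 10 nt between them in 19.4%, 36.2% and 13.2% of cases in replicates 1, 2 and 3, against 8.24%, 30.3% and 10.2% over all genes. Neighbouring intervals need not be separate binding events, and after joining those within 10 nt in a library the 6 genes had 34, 73 and 52 positions in place of 41, 111 and 59 intervals. None of the intervals was also listed under another gene, and no interval of another gene lay between the first and the last interval of any of the 6, on either strand.

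Likeness to other genes was measured as the Euclidean distance over the 3 libraries between log2 levels, taken from intervals per 1000000 with a pseudocount of 1. The gene most like pyd was FBgn0005630, with 18, 47 and 25 intervals (distance 0.38), and the next was dlg1 itself (0.56). The gene most like dlg1 was FBgn0086902, with 13, 41 and 21 intervals (0.24). For shg, 1 other gene had the same 3 counts. With 3 libraries this measure mostly reflects the number of intervals. Of 64 symbols in 7 lists of junction genes (adherens, septate and gap junctions, cadherins, polarity, MAGUK scaffolds and junctional actomyosin), 6 are the genes described here and 1 other, the MAGUK gene metro, could be tied to a gene ID. Metro had 3, 7 and 2 intervals, with fewer than pyd and dlg1 in each library. The other 57 and the 15 markers of germline and somatic gonad cells were not analysed here, so the labelled cell type was not checked against markers.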

How the data were processed

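The authors deposited 1 list of called intervals per library (chromosome, start, end, gene ID, score, strand), and the deposited score is 0 in every row, per the files' values. The build was dm3 and the tools were TopHat2 2.0.13 and CASAVA 1.4, per the submitters' processing notes. Not given in the sources used here are the peak caller, its threshold, the annotation and the use of the 5-nt random barcode. Intervals were listed per library and can merge where they touch, so their number need not be proportional to binding.

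The members and gene lists were chosen with earlier results of these data known. Rows of the 6 gene IDs were taken and given 1-based positions. Shares are of all rows of a library, with 95% Wilson intervals. Intervals on 1 strand with at most 10 nt between them counted as shared, or were joined to positions. Those with at most 50 nt between them were joined to regions. For the percentage of intervals shared between libraries over all genes, rows with the same position under a second gene ID were counted once. The other values over all genes kept such rows. No test was run, since there is 1 group of 3 libraries. The rule named all 6 genes, positions with intervals of all 3 libraries and the position with most intervals in each gene, the 2 most alike genes and listed genes with a known ID. The text names fewer of the alike genes, as their IDs have no symbol. The search for shared intervals was checked on simulated data. Values were computed in Python 3.11.15 with pandas 2.3.3, numpy 2.4.6 and scipy 1.17.1, and drawn with matplotlib 3.10.9. Base sequences were not used here.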

Additional observations from a re-analysis of the deposited data

How the results depend on the processing

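Of 81 alternative values, 73 moved by less than the spread between libraries or, for counts, by at most 1.5 times. Leaving out 1 of 3 libraries can hardly shift a mean over libraries by 1 SD, so this says little. The 5 genes bound in all 3 libraries became 3 when each library had to hold 2 or more intervals and 3 with intervals of at least median width, and numbered 5 to 6 when 1 library was left out. The 12 positions of all 3 libraries became 4 with intervals of at least median width, and numbered 12 to 22 in the remaining pair of libraries (22 without replicate 1). The 27 positions of at least 2 libraries numbered 12 to 22 in the remaining pair (12 without replicate 2 and 17 without replicate 3). These counts change by construction, as fewer intervals or libraries are used. The mean percentage near a larger library (59.9%) ranged from 43.9% to 73.2% when 1 library was left out. The lowest value, without replicate 2, differed from the mean by more than the SD over pairs (14.8). The mean share of the 6 genes (0.610%) ranged from 0.404% to 0.762%. Of 42 alternative values for single genes, 1 moved by more than the spread, the share of shg with close intervals counted once (0.0320%, chosen after seeing the data). No paired analysis was possible because the 3 libraries form 1 group. The lack of interval heights and read depth limits what can be said of replicate 1, where 1 interval decides the values of arm and 2 those of alpha-Cat.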
